A study of Rattus norvegicus with 8 samples.

Results

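A set of 9 genes was followed that carry a calcium signal from calmodulin to the nucleus: Nrgn, the CaMKII subunit genes Camk2a, Camk2b, Camk2d and Camk2g, the kinase genes Camkk2 and Camk4, and the transcription factor genes Creb1 and Crem. Their probes were chosen by the gene name printed beside each probe, which gave 15 of the 15207 non-control probes on the array. Of these 15 probes, 12 probes of 8 genes gave enough signal to be tested. The other 3 probes, both of Camk2d and 1 of Camk2b, were not.

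The samples were hippocampal tissue of rats at 2 months of age, with 4 samples in each of 2 groups. Pups of the fluoxetine group, called PNFLX, had been given 10 mg/kg of fluoxetine, an antidepressant that blocks serotonin uptake, and the control pups a 5% sucrose solution as vehicle. The treatment protocol dates dosing from postnatal day 2 to 21, whereas the end days in the sample descriptions run on from 21 to 28 in sample order. RNA of each sample was labelled with Cy3 and read on 1 single-colour Agilent array. Strain and sex are not given in the sources used here, and the labels do not say that each sample came from a separate animal, so the p-values measure only the spread between these samples. The comparison asks which hippocampal transcripts differ in the adult after early fluoxetine.

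Calmodulin is the small protein through which calcium acts on many enzymes. Neurogranin, the product of Nrgn, holds calmodulin in dendritic spines while calcium is low and releases it when calcium rises. CaMKII is a large kinase assembly built from the subunits alpha, beta, gamma and delta, of which alpha and beta predominate in forebrain neurons, and it is known for its part in hippocampal long-term potentiation. A second branch runs from CaMKK2, which activates CaMKIV, to CREB, the factor that binds the cAMP response element of activity-dependent genes. Crem encodes relatives of CREB that activate or, as ICER, repress the same element.

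On this array the probe sequences decide how many independent readings each gene has. The sequence on both Nrgn spots was the same, and so was that on both Camkk2 spots, so each of these genes was read by 1 sequence at 2 spots of every array. Camk2b had 2 different sequences. The first 30 of the 60 bases are shown for Nrgn and all 60 for the others, 5′ to 3′, in lower case throughout, as the files give them.
Nrgn, spot rows 19 and 125: ttcgtcgtggcgtagccaagtccgtgccct
Camkk2, spot rows 43 and 61: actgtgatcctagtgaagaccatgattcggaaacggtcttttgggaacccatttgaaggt
Camk2a, spot row 159: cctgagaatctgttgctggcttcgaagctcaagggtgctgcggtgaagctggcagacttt
Camk2b, spot row 47: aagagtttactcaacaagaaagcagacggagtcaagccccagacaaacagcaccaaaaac
Camk2b, spot row 96: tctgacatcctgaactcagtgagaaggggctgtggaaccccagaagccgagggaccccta

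A spot row is the row of spots, of 192 on the array, in which a probe was printed. The sequence of Nrgn lies at chr8:38800017-38800076 on the minus strand and that of Camkk2 at chr12:34793852-34798245 on the plus strand, both on build rn4 as the files give it. The Camkk2 interval covers 4394 bases for 60 bases of probe, so the probe joins spliced exons. Whether a probe lies in coding sequence or a UTR was not analysed here, except where the files name it.

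All levels below are log2 of the processed spot signal relative to the 75th percentile of its array, so 0 is the level of that percentile. A probe was tested where 4 or more of the 8 arrays showed its spot well above background, which 11600 probes met. Differences are PNFLX minus control with the moderated standard error (SE) and 95% interval of limma, and adjusted p-values cover all 11600 probes.

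In limma 0 of the 12 member probes reached an adjusted p under 0.05, where 0.672% of all 11600 probes did. The first and last 5 spot rows, which held no tested member, had 33 and 20 of those 78 calls, and in rows 21 to 172 the share was 0.0967%. At an unadjusted p under 0.05 there was 1 member probe, a spot of Nrgn, where 12.5% of all probes lay under it. Of the 12 differences 9 were below 0 and 3 above, against 54.5% below 0 over all probes. The median over the members was -0.10 and that over all probes -0.03. This count followed the processing, with 1 of 12 below 0 without scaling between arrays, where the median of all probes was 0.26, and 4 of 12 with normexp background correction, where it was -0.38. The groups did not overlap at 2 of the 12 probes, which were the 2 spots of Nrgn, both lower in PNFLX. Among all 11600 probes 10.7% had groups that did not overlap, made up of 6.41% lower in PNFLX and 4.33% higher. The 95% intervals reached between 0.27 and 0.73 to either side of the difference, with a median of 0.39, and 4 arrays per group limit this precision.

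**Figure D1:**
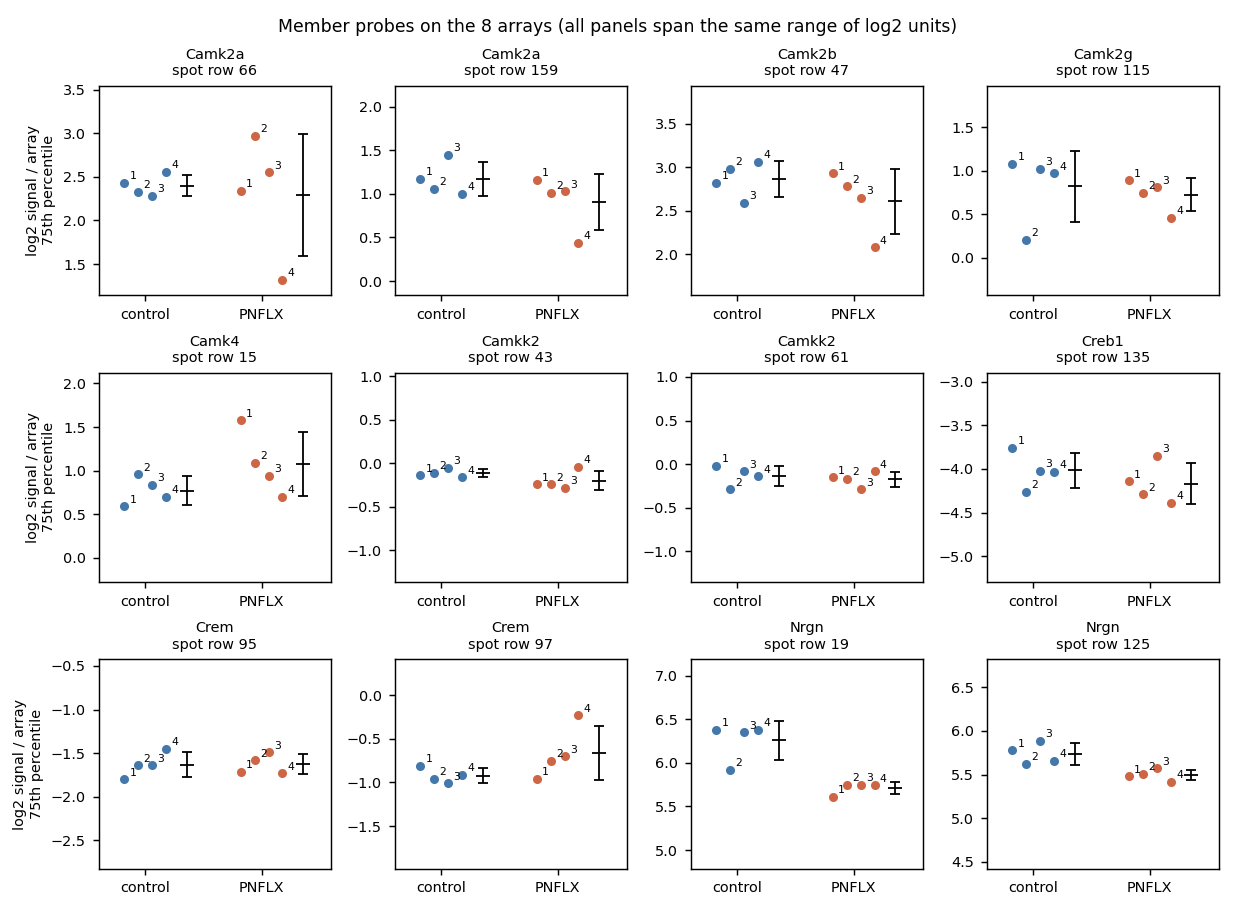
Log2 level of each tested member probe, relative to the 75th percentile of its array, with control and PNFLX samples as separate points. The groups overlap at 10 of the 12 probes, and the Nrgn spots are the exceptions, with every PNFLX point below every control point.

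Neurogranin was lower in PNFLX at both spots, although neither difference passed and that at spot row 125 was 0.05 without scaling between arrays. At spot row 19 the controls read 6.38, 5.92, 6.35 and 6.38, and the PNFLX samples 5.61, 5.75, 5.75 and 5.74. Every control was above every PNFLX sample, and control 2 was the lowest control. The means were 6.26 ± 0.23 and 5.71 ± 0.07 (SD, n = 4), a level 1.46-fold lower in PNFLX (log2 difference -0.54, SE 0.15, interval -0.88 to -0.21, limma adjusted p = 0.180). At spot row 125 the same sequence read 5.78, 5.62, 5.89 and 5.66 in control and 5.48, 5.51, 5.57 and 5.42 in PNFLX. Here too the groups were apart, by less, and control 2 was again the lowest control. The means were 5.74 ± 0.12 and 5.50 ± 0.06 (SD, n = 4), 1.18-fold lower in PNFLX (log2 difference -0.24, SE 0.12, interval -0.52 to 0.03, limma adjusted p = 0.454). With the 2 spots averaged on each array, a choice made after seeing the data, the controls lay between 5.77 and 6.12 and PNFLX between 5.54 and 5.66. That difference was -0.39 (SE 0.13, interval -0.69 to -0.10, limma adjusted p = 0.264), or 1.31-fold lower. With the medians of spot rows and columns subtracted on every array, spot row 19 was at -0.48 (SE 0.3, limma adjusted p = 0.647). Spot row 125 was then at -0.12 (SE 0.17, limma adjusted p = 0.832). In whole tissue, fewer cells of a type and less RNA per cell cannot be told apart.

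Since 1 sequence gave 2 readings on the same RNA, the spots can be set against each other. Spot row 19 read above spot row 125 by 0.60, 0.29, 0.46 and 0.72 in control and by 0.13, 0.24, 0.18 and 0.31 in PNFLX. The mean gap was 0.52 in control and 0.22 in PNFLX, so the copies lay closer together in PNFLX. The scanner software had divided the background-subtracted brightness of each spot by the height of a surface fitted over the array, a step named multiplicative detrending in the file headers. At spot row 19 this divisor was 0.53, 0.59, 0.53 and 0.40 in control and 0.98, 0.94, 0.89 and 0.67 in PNFLX. Every control spot there was thus divided by a smaller number than any PNFLX spot, and the log2 divisor was 0.77 higher in PNFLX than in control. At spot row 125 the divisor ran from 1.14 to 1.28 in control and from 1.09 to 1.25 in PNFLX, a log2 difference of -0.06.

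**Figure D2:**
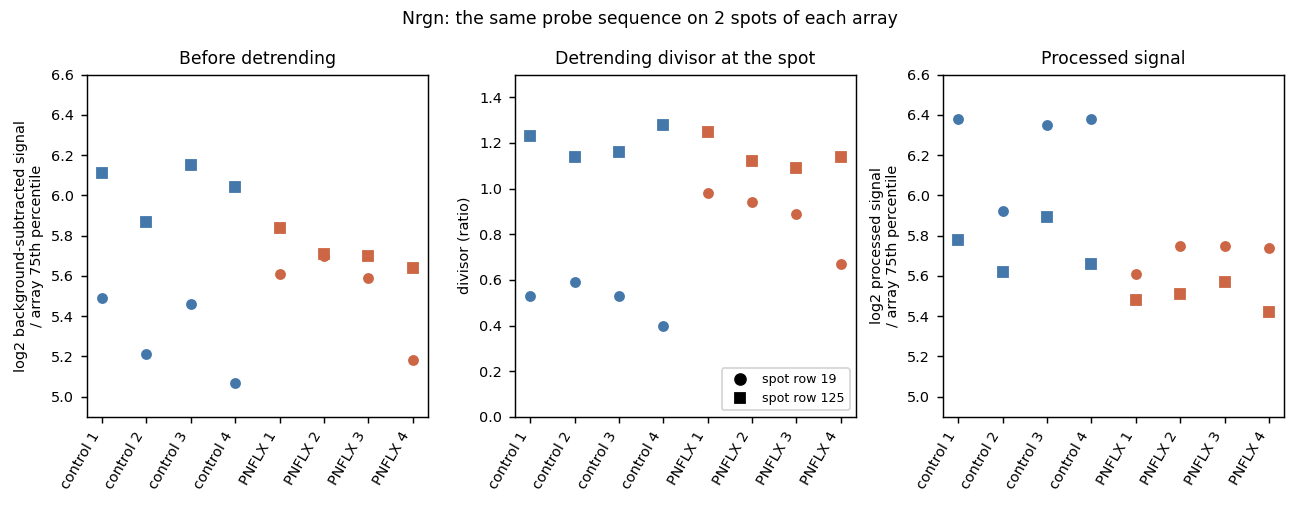
Nrgn on each of the 8 arrays, with circles for spot row 19 and squares for spot row 125, blue for control and orange for PNFLX. The panels give the log2 level before detrending, the divisor (a ratio) and the log2 processed level. At spot row 19 the divisor is 0.40 to 0.59 in control and 0.67 to 0.98 in PNFLX, and only after the division do the controls lie above PNFLX there.

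Before that division the 2 spots of Nrgn went opposite ways. Spot row 19 read 5.49, 5.21, 5.46 and 5.07 in control and 5.61, 5.70, 5.59 and 5.18 in PNFLX, and the groups overlapped. PNFLX 4 lay among the controls there, and the other three PNFLX samples above them. The log2 difference was 0.21 (SE 0.16, interval -0.16 to 0.59, limma adjusted p = 0.500). Spot row 125 read 6.11, 5.87, 6.15 and 6.04 in control and 5.84, 5.71, 5.70 and 5.64 in PNFLX. Every PNFLX sample was below every control, with a log2 difference of -0.32 (SE 0.12, interval -0.58 to -0.05, limma adjusted p = 0.183). Under the scanner software's own background subtraction, Nrgn at spot row 125 was therefore lower in PNFLX with and without the division. At spot row 19 Nrgn was lower only with the division. The raw mean brightness was 21690 to 32767 in control and 33436 to 47960 in PNFLX at spot row 19, and 42497 to 52821 and 45062 to 51686 at spot row 125. All lay below the scanner's saturation value of 65525. Normexp background correction started from the raw mean brightness and so also left out the division. It turned both differences of Nrgn, to 0.54 and 0.008, where the median of all probes was -0.38.

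The array held 1488 pairs of tested spots with identical sequence and these show how far copies differed in general. The group difference at one copy lay a median of 0.22 from that at the other, and the 90th percentile of that distance was 0.94. The sign was the same in 62.9% of pairs. In Nrgn the copies lay 0.30 apart, and 61.0% of the pairs lay closer. In Camkk2 they lay 0.04 apart, and 11.9% lay closer. Among the 938 pairs with both spots in rows 21 to 172 the median distance was 0.16. The gap between the Nrgn copies was therefore within the usual range of this array, and it was larger than the difference measured at spot row 125.

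**Figure D3:**
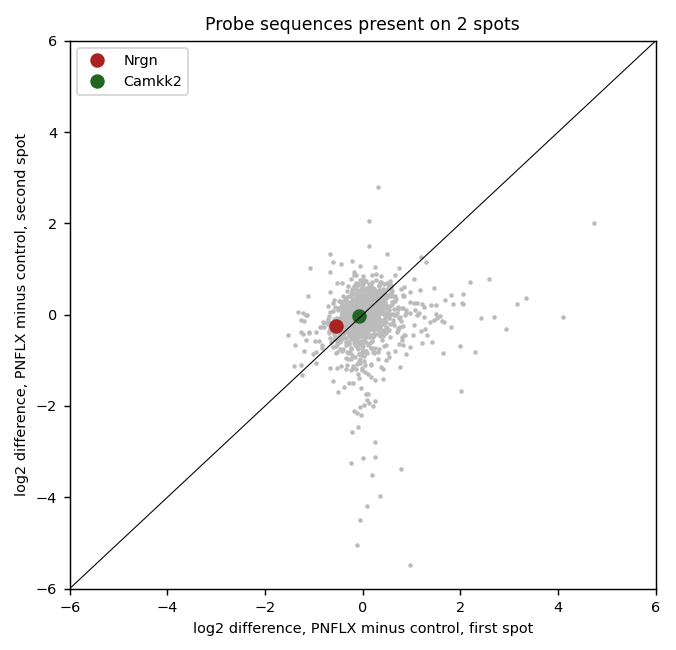
Log2 difference, PNFLX minus control, at the first and the second copy of each probe sequence printed on 2 spots, with Nrgn and Camkk2 marked. Copies that read alike lie on the diagonal; the median distance between copies is 0.22, that of Nrgn 0.30 and that of Camkk2 0.04.

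The CaMKII subunit genes did not pass in limma at any tested probe, and their widest spread came from 1 array. Camk2a, the alpha subunit, had a probe in spot row 66 that the files place in its 3′ UTR, at chr18:57023052-57023111 on the plus strand of rn4. It read 2.43, 2.33, 2.28 and 2.56 in control and 2.34, 2.97, 2.55 and 1.32 in PNFLX. PNFLX 4 was far below all others and PNFLX 2 above them, with the controls close together in between. The means were 2.40 ± 0.12 and 2.29 ± 0.70 (SD, n = 4), and the log2 difference was -0.11 (SE 0.32, interval -0.84 to 0.63, limma adjusted p = 0.907). The second Camk2a probe, in spot row 159, spans chr18:56976633-56990498. Its levels were 1.17, 1.06, 1.45 and 1.00 in control and 1.16, 1.01, 1.03 and 0.44 in PNFLX. PNFLX 4 was again lowest, control 3 was highest, and the remaining samples were mixed. The log2 difference was -0.26 (SE 0.19, interval -0.70 to 0.18, limma adjusted p = 0.602). Before detrending it was -0.49 (SE 0.19, interval -0.93 to -0.05, limma adjusted p = 0.209).

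Camk2b, the beta subunit, which ties the kinase to actin filaments, was read in spot row 47 by a probe spanning chr14:86664377-86664592 on the minus strand. It gave 2.82, 2.98, 2.59 and 3.06 in control and 2.93, 2.78, 2.65 and 2.08 in PNFLX. The groups overlapped except for PNFLX 4, which was lowest. The log2 difference was -0.25 (SE 0.21, interval -0.73 to 0.23, limma adjusted p = 0.644). Camk2g, the gamma subunit, at chr15:3783656-3785221 on the plus strand, read 1.08, 0.21, 1.02 and 0.97 in control and 0.89, 0.75, 0.81 and 0.46 in PNFLX. Its lowest sample was control 2, and PNFLX 4 came next. Its log2 difference was -0.09 (SE 0.22, interval -0.59 to 0.41, limma adjusted p = 0.881).

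On PNFLX 4 the 4 CaMKII probes lay 1.18 and 0.69 (Camk2a, spot rows 66 and 159), 0.75 (Camk2b) and 0.36 (Camk2g) below the mean of the other arrays. On those arrays the same probes ranged from -0.21 to 0.47, -0.13 to 0.32, -0.24 to 0.23 and -0.61 to 0.26 around it, so PNFLX 4 was outside the range at 3 of the 4 probes. Without PNFLX 4 the log2 differences became 0.22 and -0.10 for Camk2a, -0.07 for Camk2b and -0.003 for Camk2g. PNFLX 4 held the lowest value of 5 of the 12 member probes and the highest of 2, where over 11246 probes measured on every array it held the lowest of 27.6% and the highest of 22.2%. Some lists of pathway genes and cell type markers had their lowest mean on PNFLX 4 and are named here for that reason. The mean of 6 of 6 oligodendrocyte markers was at -0.53 against -0.24 to 0.33 on the other arrays. That of 5 of 6 microglial markers was at -0.42 against -0.06 to 0.19. The mean of 5 of 6 pyramidal neuron markers of the CA fields was at -0.24 against -0.16 to 0.25, and that of 12 of 13 CREB kinases at -0.32 against -0.13 to 0.21. The mean of 11 of 11 synaptic partners of CaMKII was at -0.34, against -0.12 to 0.14. Also lowest there were calmodulin with its binding proteins, at -0.13, and blood markers, at -0.36. The remaining lists were lower on another array. General neuronal markers were at -0.09 on PNFLX 4 and -0.19 on PNFLX 1, and interneuron markers at 0.10 and -0.17. Astrocyte markers were at 0.07 on PNFLX 4 and -0.39 on control 1. Dentate granule markers were at -0.23 on PNFLX 4 and -0.90 on control 2. The part of tissue composition in the low CaMKII values was not tested.

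**Figure D4:**
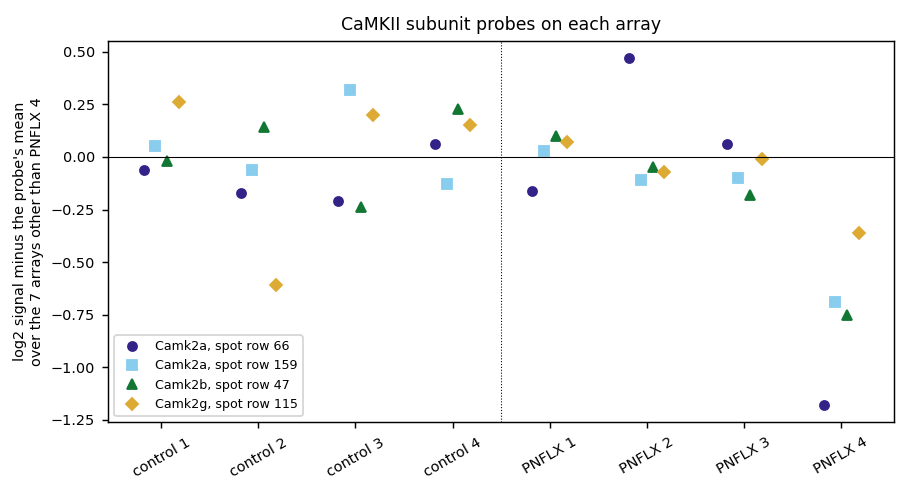
CaMKII probes on each array, as the log2 level minus the mean of the 7 arrays other than PNFLX 4. PNFLX 4 lies at -1.18, -0.69 and -0.75 for the Camk2a and Camk2b probes, below all other arrays, and at -0.36 for Camk2g, where control 2 is lower.

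Camk2d, the delta subunit, was not tested. Its probe in spot row 31 was well above background on 0 of 8 arrays, and that in spot row 3 on 1 PNFLX array and 0 control arrays. The second Camk2b probe, in spot row 96 at chr14:86659756-86659815, was well above background on 1 PNFLX array and 0 control arrays. Its levels ran from -7.24 to -4.22 and give no fold. The 2 Camk2b sequences thus split into one read on all 8 arrays and one read on a single array.

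In the second kinase branch, neither gene passed. Camkk2, the kinase that activates CaMKIV, was measured at its spot row 43 at -0.14, -0.11, -0.05 and -0.16 in control and at -0.24, -0.24, -0.28 and -0.04 in PNFLX. At spot row 61 the same sequence gave -0.02, -0.29, -0.08 and -0.14, and -0.15, -0.17, -0.29 and -0.08. All readings lay between -0.29 and -0.02, and the groups overlapped at both spots. The log2 differences were -0.08 (SE 0.12, limma adjusted p = 0.790) and -0.04 (SE 0.12, limma adjusted p = 0.911). Averaged per array they gave -0.06 (SE 0.12, interval -0.33 to 0.21, limma adjusted p = 0.846). Before detrending the copies read 0.29 (SE 0.12) and -0.15 (SE 0.12), with divisors of 0.76 to 0.89 in control and 0.93 to 1.18 in PNFLX at spot row 43, and of 1.18 to 1.26 and 1.08 to 1.18 at spot row 61. For this gene the copies lay 0.04 apart after the division and on opposite sides of 0 before it.

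Camk4, the nuclear kinase that phosphorylates CREB, lies at chr18:25652161-25652220 and was read in spot row 15. The controls were at 0.59, 0.96, 0.84 and 0.70 and the PNFLX samples at 1.58, 1.09, 0.94 and 0.70. PNFLX 1 stood highest, while PNFLX 3 and PNFLX 4 lay within the range of the controls. The means were 0.77 ± 0.17 and 1.08 ± 0.37 (SD, n = 4), with a log2 difference of 0.30 (SE 0.20, interval -0.16 to 0.77, limma adjusted p = 0.565). Before detrending it was 0.66 (SE 0.16, interval 0.30 to 1.02, limma adjusted p = 0.0614), with divisors of 0.75 to 0.81 in control and 0.88 to 1.07 in PNFLX. Over all alternatives tried, the difference of Camk4 stayed above 0, between 0.07 and 0.69, with adjusted p from 0.0614 to 0.943.

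**Figure D5:**
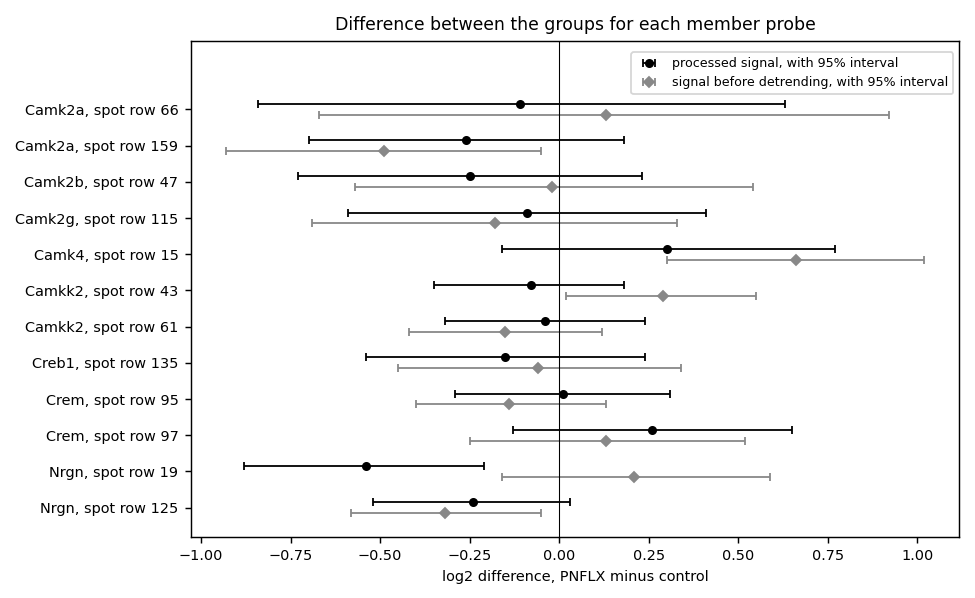
Log2 difference, PNFLX minus control, of each tested member probe with its 95% interval, from the processed signal (black circles) and from the signal before multiplicative detrending (grey diamonds). The processed intervals include 0 except at Nrgn in spot row 19, from -0.88 to -0.21, where the value before detrending is 0.21. Before detrending the intervals leave out 0 at Camk2a in spot row 159 (-0.93 to -0.05) and Nrgn in spot row 125 (-0.58 to -0.05). They also do so at Camkk2 in spot row 43 (0.02 to 0.55) and Camk4 (0.30 to 1.02), and none of these passed. Camk4 lies at 0.30 and 0.66.

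Creb1, the gene of CREB itself, was measured at chr9:63381602-63381661, at -3.76, -4.26, -4.02 and -4.03 in control and -4.14, -4.29, -3.85 and -4.39 in PNFLX. The ranges overlapped in part, with PNFLX 2 and PNFLX 4 below every control and control 1 above every PNFLX sample. The log2 difference was -0.15 (SE 0.17, interval -0.54 to 0.24, limma adjusted p = 0.735). Crem had 2 probes with different sequences, at chr17:62841513-62841572 (spot row 95) and chr17:62846921-62846980 (spot row 97). The first read -1.80, -1.64, -1.64 and -1.45 in control and -1.71, -1.58, -1.49 and -1.73 in PNFLX, and its group means lay 0.01 apart (SE 0.13, interval -0.29 to 0.31, limma adjusted p = 0.986). The second read -0.81, -0.96, -1.01 and -0.91 in control and -0.96, -0.75, -0.70 and -0.23 in PNFLX. PNFLX 2, PNFLX 3 and PNFLX 4 were above every control there, PNFLX 4 most of all, and PNFLX 1 lay among the controls. The log2 difference was 0.26 (SE 0.17, interval -0.13 to 0.65, limma adjusted p = 0.564), and 0.12 without PNFLX 4. The probes may read different transcripts of Crem, a gene known for its alternative promoters, and their difference from each other was not tested.

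CREB and CREM proteins bind the palindrome TGACGTCA. In the promoter windows of RefSeq on assembly GRCr8, each of 300 bases around the start, 11 windows matched 8 of the 9 members. The full motif was searched in this spelling, which reads the same on both strands. It was found in 2 of the 11 windows, both of Crem, and in 1.83% of 33469 windows of all genes. The shorter TGACG, searched on both strands and overlapping the full motif, was found in 5 of the 11, of Creb1, Crem and Camk2a, and in 21.2% of all windows. The stretches around the full motif in Crem are shown because Crem is the member whose start sites carry it, with the motif in capitals. The second window holds 1 more full motif after the start, outside the stretch shown.
Crem, chr17:58984731-58984755, plus strand: gataggctggTGACGTCActgtgat
Crem, chr17:58985445-58985489, plus strand: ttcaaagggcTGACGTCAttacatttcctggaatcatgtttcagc
A match describes these letters in this window, and binding was not measured.

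Other genes of the pathway were taken from 7 lists with 85 genes, of which 74 had a tested probe. Of these 74, 39 were lower in PNFLX and 35 higher, and 1 passed in limma, against 0.672% of all probes. The 1 gene was Ppargc1a, a CREB target that codes for a coactivator of mitochondrial biogenesis, at 2.82 (SE 0.34, limma adjusted p = 0.0130). Its spot lay in row 2 and was well above background on 1 control array and all 4 PNFLX arrays, so it entered the test through the group where it was higher, and the size rests on controls that were mostly dim. When the medians of spot rows and columns were subtracted on every array it was at 1.54 (limma adjusted p = 0.127). The first 5 spot rows had a median difference of 0.75 over 267 probes, against -0.05 over 9310 probes in rows 21 to 172. The tested members lay in rows 15 to 159, and rows 15 to 25, which hold Camk4 and the first Nrgn spot, had a median of -0.14 over 667 probes.

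Among the proteins that bind or store calmodulin, 7 of 8 were tested, 4 of them lower and 3 higher, with a median of -0.06 and 0 passing. Calm2, which codes for calmodulin, was at -0.31 (SE 0.22). Gap43, the growth cone relative of neurogranin in calmodulin binding, was at -0.23 (SE 0.22). A list of further kinases of the family, kinase-like Camkv and the CaMKII inhibitor genes Camk2n1 and Camk2n2 had 10 of 11 tested, with 7 lower, 3 higher, 0 passing and a median of -0.07. Mylk, myosin light chain kinase, had the smallest p, at -0.62 (SE 0.13, limma adjusted p = 0.0996). After row and column subtraction Mylk was at -0.33 (limma adjusted p = 0.658). Camkv, a kinase-like protein of vesicles, was at -0.21 (SE 0.16). On the other side of 0 were Eef2k at 0.19 (SE 0.16) and Dapk1 at 0.62 (SE 0.56). Of the synaptic partners of CaMKII, 9 of 11 were lower, 2 were higher and 0 passed, and the median was -0.13. After row and column subtraction 7 were lower and 4 higher. The partners included Actn2, an actin crosslinker, at -0.99 (SE 0.26, limma adjusted p = 0.174), and the NMDA receptor subunit gene Grin1 at -0.43 (SE 0.44). Grin1 lay in spot row 190, among the last 5 rows with a median of -0.79, and turned to 0.78 after row and column subtraction.

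Calcineurin is the phosphatase that opposes these kinases. In the list of its subunits and its RCAN regulators 6 of 7 tested genes of 8 had higher values in PNFLX, with a median of 0.24 and 0 passing, and after row and column subtraction the median was 0.01. Of the subunit genes 3 of 4 were higher, and Rcan3 was well above background on 1 control array and 4 PNFLX arrays. Its catalytic subunit genes Ppp3ca and Ppp3cc were both at 0.24 (SE 0.17 and 0.12), and the regulatory subunit gene Ppp3r1 was at -0.51 (SE 0.44). Of 10 tested genes of 16 in the CREB family and its coactivators, 7 were higher and 3 lower, with 0 passing and a median of 0.09. After row and column subtraction 5 were higher and 5 lower. Atf7 was at 0.65 (SE 0.27, limma adjusted p = 0.368) and Atf1, the closest relative of CREB beside CREM, at 0.21 (SE 0.20). Creb3l1 was at -0.57 (SE 0.35) and Crebl2 at -0.23 (SE 0.24). The 12 tested CREB kinases of 13 divided evenly, with 6 lower and 6 higher and 0 passing. Prkaca, of protein kinase A, was at -0.39 (SE 0.22). Among 17 tested CREB targets of 18, 8 were higher and 9 lower, and the median was -0.01. Junb was at -0.61 (SE 0.20, limma adjusted p = 0.267) and Fos at -0.32 (SE 0.18), both immediate early genes. Egr1 and Nr4a1, immediate early genes named here after their values were seen, were at 0.47 (SE 0.33) and 0.14 (SE 0.18).

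The probes whose pattern over the 8 arrays lay closest to a member were found by the root mean square gap between log2 levels, each probe centred on its own mean, among 9321 probes. Closest to Nrgn in spot row 19 were Nr0b1, Chrna7, Myl7 and Espn, with gaps of 0.10, and Dnase2 with 0.11. Their differences ran from -0.66 for Chrna7, a nicotinic receptor subunit gene, to -0.43 for Espn and Dnase2, and none passed. Closest to Camk2a in spot row 66 were Hyou1, Arf6 and Fkbp15, with gaps of 0.15, and Sqstm1 and RT1-T24-1, with 0.17. By rule only the 5 closest named genes were listed for each of the 2 member probes. The number of all probes within 0.11 of the Nrgn pattern, or within 0.17 of the Camk2a pattern, was not counted. The gap is not scaled to how widely a probe varies, so it cannot say which pattern was matched more closely.

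The arrays had a 75th percentile of signal between 654.4 and 941.4, with 70.5% to 77.9% of probes well above background, and correlated at 0.949 to 0.983. All lay on 1 slide, with the controls and PNFLX in different rows of that slide, so the effect of the slide row cannot be told apart from that of fluoxetine. In both groups the slide column of each array was the same as its replicate number. Markers of hippocampal neurons were measured, with 4 of 5 dentate granule markers, 5 of 6 CA field markers and 4 of 5 general neuronal markers tested. Dentate markers were higher in PNFLX in 4 of 4, with list means of -0.90 to 0.22 in control and -0.23 to 0.64 in PNFLX, and 0 passed. After row and column subtraction 3 of these 4 were higher. CA field markers were lower in 3 of 5 with a median of -0.23, and general neuronal markers in 3 of 4 with a median of -0.14. With row and column medians subtracted these counts were 3 of 5 and 2 of 4. Of 5 tested endothelial markers of 6, 1 passed, Emcn in spot row 1, at 2.30 (SE 0.33, limma adjusted p = 0.0277), well above background on 1 control array and 4 PNFLX arrays. It was at 1.26 after row and column subtraction (limma adjusted p = 0.390). Meningeal markers were higher in 5 of 6, and oligodendrocyte markers lower in 6 of 6, again with 0 passing. After row and column subtraction 5 of 6 meningeal markers were higher, and the oligodendrocyte markers divided into 3 lower and 3 higher. Of 6 choroid plexus markers 3 were tested, with a list mean of 3.15 on control 4 and between -1.42 and 0.88 on the others, and Kl, Kcne2 and Clic6 were well above background on too few arrays to test. The part of these in the values of the members was not tested.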

How the data were processed

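RNA of 8 hippocampal samples was labelled with Cy3 and hybridised to single-colour Agilent arrays. Groups and replicate numbers came from the source names. The authors deposited spot intensity values made with Agilent Feature Extraction 10.5.1.1, with positions on rn4, per the file headers, together with the detrending divisor of each spot, a ratio. Processed signals equalled background-subtracted intensity over this deposited ratio within 1% at 100% of the spots well above background. The authors' deposited table of log2 values was recovered within 0.00242 by dividing processed signals by their array's 75th percentile, taking log2 and centring probes on their medians; its column medians ran from -0.131 to 0.103.

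For the fit, processed signals were divided by the 75th percentile of the 15207 non-control probes on their array and put on the log2 scale, and spots flagged as outliers were left out. The 11600 probes with 4 or more arrays well above background were fitted with limma 3.58.1 in R 4.3.3 (group only, empirical Bayes, Benjamini-Hochberg, threshold 0.05), and the fit was tested on simulated data. Names of 14152 probes came from RefSeq's GRCr8 gene table, used for names only; the other probes kept the file's name.

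Every member probe was reported. In each pathway list up to 4 genes of smallest p could be named, each by its brightest probe, and for Nrgn and Camk2a the 5 probes of most similar pattern. Some genes that this rule names are not reported here. The members and lists were chosen with earlier results of these data known. Alternatives changed background correction, scaling, filter, probe choice, outlier spots, row and column medians, end rows, replicate block and each replicate. Normexp background correction started from the raw mean brightness and so also left out the detrending division. The averaging of same-sequence spots and the signal before multiplicative detrending were added after seeing the data.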

Additional observations from a re-analysis of the deposited data

Results flagged for a closer look

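In 6 of 80 groups of 4 samples examined, 1 sample stood apart from the other three by Dixon's criterion, where chance gives about 1 in 20 independent, unselected groups. The groups examined included pathway genes picked by their small p in these data, so the count cannot be read against that rate. For Camk2g, control 2 was at 0.21 in a group reaching 1.08. For Nrgn in spot row 19, control 2 was at 5.92 among controls reaching 6.38, and PNFLX 1 was at 5.61 among PNFLX samples reaching 5.75, both still on their own side of the gap between the groups. For Atf7, control 3 was at -5.78 in a group reaching -4.69. For the calcineurin gene Ppp3cc, PNFLX 2 was at -2.06 in a group reaching -1.89. For Creb3l1, PNFLX 1 was at -1.19 in a group reaching -0.15.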

How the results depend on the processing

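Under all 22 alternatives, 20 planned and 2 added after seeing the data, 0 member probes passed in limma; the number of member probes at an unadjusted p under 0.05 was 1 before any change. Among all probes the call count, 78, became 50 with normexp, 143 without scaling, 46 without the filter, 47 with signal required on all arrays, 48 with the brightest probe per gene, 23 after row and column subtraction, 0 without the first and last 5 rows (1261 at an unadjusted p under 0.05), 462 before detrending and 33 to 104 with 1 sample left out. The cause was not tested. The replicate block gave 13 calls and 0 among the members. The replicate number was also the slide column of the array, so this block was a slide-column block too. Same-numbered samples correlated at only 0.00813 to 0.0921, so the numbers were not taken as pairs. Controls 2 and 3 correlated best with their own number and control 1 with PNFLX 4. Control 4 correlated about equally with PNFLX 4 (0.0222) and PNFLX 3 (0.0221). The part of the slide column in the call count was not tested.

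Small differences turned sign under some settings. With normexp, which moved the median of all probes from -0.03 to -0.38, those of Camk2a (row 66), Camk2b, Camk2g, Camkk2 (row 43), Crem (row 95) and Nrgn (rows 19 and 125) were 0.42, 0.29, 0.06, 0.20, -0.42, 0.54 and 0.008. Without scaling, where that median was 0.26, Camk2a (rows 66 and 159), Camk2b, Camk2g, Camkk2 (rows 43 and 61), Creb1 and Nrgn (row 125) were at 0.19, 0.04, 0.05, 0.20, 0.21, 0.26, 0.15 and 0.05. After row and column subtraction Camk2b, Camk2g, Camkk2 (row 61) and Crem (row 95) were at 0.04, 0.09, 0.12 and -0.16. Before detrending Camk2a (row 66), Camkk2 (row 43), Crem (row 95) and Nrgn (row 19) were at 0.13, 0.29, -0.14 and 0.21. With 1 sample left out, Camk2a (row 66) ranged from -0.33 to 0.22, Camkk2 (row 61) from -0.09 to 0.001 and Crem (row 95) from -0.05 to 0.07. Camk4 and Crem (row 97) turned under none of the 22. Crem (row 97) went from 0.26 to 0.12 without PNFLX 4, 0.06 after row and column subtraction and 0.007 with normexp. The adjusted p of Nrgn ranged from 0.108 to 0.647 at row 19 and from 0.183 to 0.988 at row 125. Signal over background limited Camk2d and 1 Camk2b probe, which were not tested.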
